A study of Arabidopsis thaliana with 6 samples.

Results

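The 43 nuclear genes described here encode the light-harvesting antenna, the subunits of the photosystems and the small subunit of Rubisco. They were taken by locus identifier, 43 of the 33602 genes in the count files, and fall into 13 LHCB, 4 LHCA, 12 PSA, 10 PSB and 4 RBCS genes. All 43 are also in the table of 25005 genes that the authors deposited for vil1-1 against Col-0. Whole Arabidopsis seedlings at an age of 1 day gave the RNA, from wild-type Col-0 plants and from vil1-1 mutants, with 3 libraries per genotype that the series design calls biological replicates. After 3 days of stratification at 4 °C in the dark, both genotypes were grown on plates at 22 °C with 16 h of light and 8 h of dark. The mutant line carries an allele of VIL1, which encodes a PHD finger protein that works with Polycomb repressive complex 2. The labels do not give the nature of the vil1-1 allele or the hour of harvest.

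Light is absorbed by chlorophyll bound to the antenna proteins, and the energy passes to photosystem II and photosystem I in the thylakoid membrane of the chloroplast. LHCB proteins serve mainly photosystem II and LHCA proteins photosystem I, while the reaction centre cores of both photosystems are encoded in the plastid genome and completed by the nuclear PSA and PSB subunits. Rubisco, which fixes carbon dioxide in the Calvin cycle, joins a plastid-encoded large subunit to the nuclear RBCS subunit. In young Arabidopsis seedlings light strongly raises transcripts of these nuclear genes as cotyledons turn green.

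Several of these genes are near copies of one another, which bears on what a count of reads can tell apart. The coding sequences of RBCS1B, RBCS2B and RBCS3B, which lie next to each other on chromosome 5, were 96.7% to 97.3% identical, and RBCS1A on chromosome 1 was 90.4% to 90.6% identical to them. Among the LHCB1 copies of chromosome 1, LHCB1.1, LHCB1.2 and LHCB1.3 were 95.6% to 96.4% identical, and LHCB1.4 and LHCB1.5 of chromosome 2 were 87% to 91.1% identical to those. The stretches below are the 60 coding bases in which RBCS2B differs most from its chromosome 5 neighbours, shown because RBCS2B is the RBCS copy called in the authors' deposited table. Capitals mark bases that differ from RBCS2B, in the genome sequence of RefSeq assembly TAIR10.1, minus strand, from chr1:25049100-25049159 for RBCS1A, chr5:15385006-15385065 for RBCS1B, chr5:15381829-15381888 for RBCS2B and chr5:15378157-15378216 for RBCS3B.
RBCS1A: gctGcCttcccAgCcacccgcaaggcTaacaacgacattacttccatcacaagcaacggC
RBCS1B: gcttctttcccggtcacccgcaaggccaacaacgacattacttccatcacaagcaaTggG
RBCS2B: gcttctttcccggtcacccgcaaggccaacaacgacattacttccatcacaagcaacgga
RBCS3B: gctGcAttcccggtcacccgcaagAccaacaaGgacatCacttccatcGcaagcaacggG

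In this stretch RBCS1B differs from RBCS2B at 2 bases and RBCS3B at 7. The same choice for the LHCB1 copies, with capitals for bases that differ from LHCB1.3, gave the next stretches, from chr1:10475602-10475661 (minus strand), chr1:10472956-10473015 (minus), chr1:10478302-10478361 (plus), chr2:14525046-14525105 (plus) and chr2:14523229-14523288 (minus).
LHCB1.1: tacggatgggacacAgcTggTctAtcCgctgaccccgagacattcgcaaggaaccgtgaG
LHCB1.2: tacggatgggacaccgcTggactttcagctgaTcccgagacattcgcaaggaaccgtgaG
LHCB1.3: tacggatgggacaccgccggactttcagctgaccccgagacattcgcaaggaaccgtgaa
LHCB1.4: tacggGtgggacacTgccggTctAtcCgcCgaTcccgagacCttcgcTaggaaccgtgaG
LHCB1.5: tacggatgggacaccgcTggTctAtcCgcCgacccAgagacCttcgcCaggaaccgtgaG

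Over whole exons, 32 of the 43 genes had no stretch of 50 bases that recurs elsewhere in the genome. The lowest shares of unique 50-base stretches were 70.5% for LHCB2.2, 76.5% for LHCB2.1 and 79.5% for LHCB1.1, and the chromosome 5 RBCS genes had 83.1% to 88%. RBCS1A had 100%. The sources used here give neither the read length nor how reads with several matches were treated, so counts within the LHCB1 and LHCB2 groups and among the chromosome 5 RBCS genes are uncertain. Of the 43 genes, 16 overlap another annotated gene, and without a stated strand setting reads of such partners cannot be told apart.

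The 6 libraries held 46917 to 66546 counts, so 1 count was worth 15.1 to 21.6 CPM, the count scaled to a common library size, and only abundant transcripts could be tested. The scaling used TMM factors, which lay between 0.9888 and 1.012. VIL1 (AT3G24440) had no count in any of the 6 libraries, so the genotype labels could not be checked from the count files. The authors' deposited table gives VIL1 a log2 fold change of -0.91 (adjusted p = 0.000309). Plastid and mitochondrial loci had 0 counts in every library, so the plastid-encoded partners of these proteins were not measured. Markers of root hair and seed coat were scarce. The 6 root hair markers summed to 30.1 to 40.8 CPM in Col-0 against 0 to 43.1 CPM in vil1-1. Of the 7 seed coat markers 4 were at 0 in every library, BAN, TT10, TT12 and TT2, and the list summed to 75.3 to 138 CPM in Col-0 against 41 to 109 CPM in vil1-1. The 4 endosperm markers summed to 286 to 452 CPM in Col-0 against 668 to 766 CPM in vil1-1, without overlap, through EXPA2 (236 ± 76.7 and 640 ± 39.6 CPM, SD, n = 3 each), while ZOU was at 0. In the counts EXPA2 was called higher in vil1-1, with a log2 fold change of 1.39 (edgeR adjusted p = 0.000227). The other endosperm markers did not rise in the counts. EPR1 totalled 18 counts for Col-0 but 14 for vil1-1, with overlapping ranges, and MAN7 totalled 2 and 1. EPR1 had 0.14 in the authors' deposited table and was not called. Log2 fold changes in the authors' deposited table were called higher for 2 of 4 endosperm markers (EXPA2 1.07, MAN7 1.14), lower for 4 of 6 root hair markers (EXPA18, LRX1, COBL9 and PRP3, -1.08 to -1.79) and in neither direction for the 6 seed coat markers it holds. The part of these shifts in tissue markers in the results on photosynthesis genes was not tested. In RNA from whole seedlings, fewer cells of a type and less RNA per cell cannot be told apart.

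Together the 43 genes took 1.08%, 0.906% and 0.857% of all counts in the Col-0 libraries, and 0.857%, 0.847% and 0.861% in those of vil1-1, in order of replicate number here and throughout. Exact 95% binomial intervals ran from 0.995% to 1.18% for Col-0 replicate 1 and from 0.768% to 0.981% over the other 5 libraries, and cover counting error only. Col-0 replicate 1 was thus the high library, and the genotypes overlapped. In summed counts the vil1-1 level was 8583 ± 75.7 CPM and the Col-0 level 9457 ± 1220 CPM (SD, n = 3 each), a log2 ratio of -0.14, or -0.02 without Col-0 replicate 1.

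RBCS1A stood far above the rest of the group. Per kilobase of exon it stood at 1765 ± 23.1 CPM for Col-0 and 1922 ± 177 CPM for vil1-1 (SD, n = 3 each), followed in Col-0 by PSAL (446), PSAF (437), PSAD1 (434), PSBX (356) and PSBQ1 (346), all in CPM per kilobase. The Col-0 levels of PSAL, PSAF and PSAD1 differed from each other by less than their SD, as did those of PSBX and PSBQ1. At the low end PSAE2 had 0 counts in all 6 libraries and PSAH1 had 3 counts in all. Of the 43 genes, 7 had fewer than 10 counts over the 6 libraries.

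**Figure D1:**
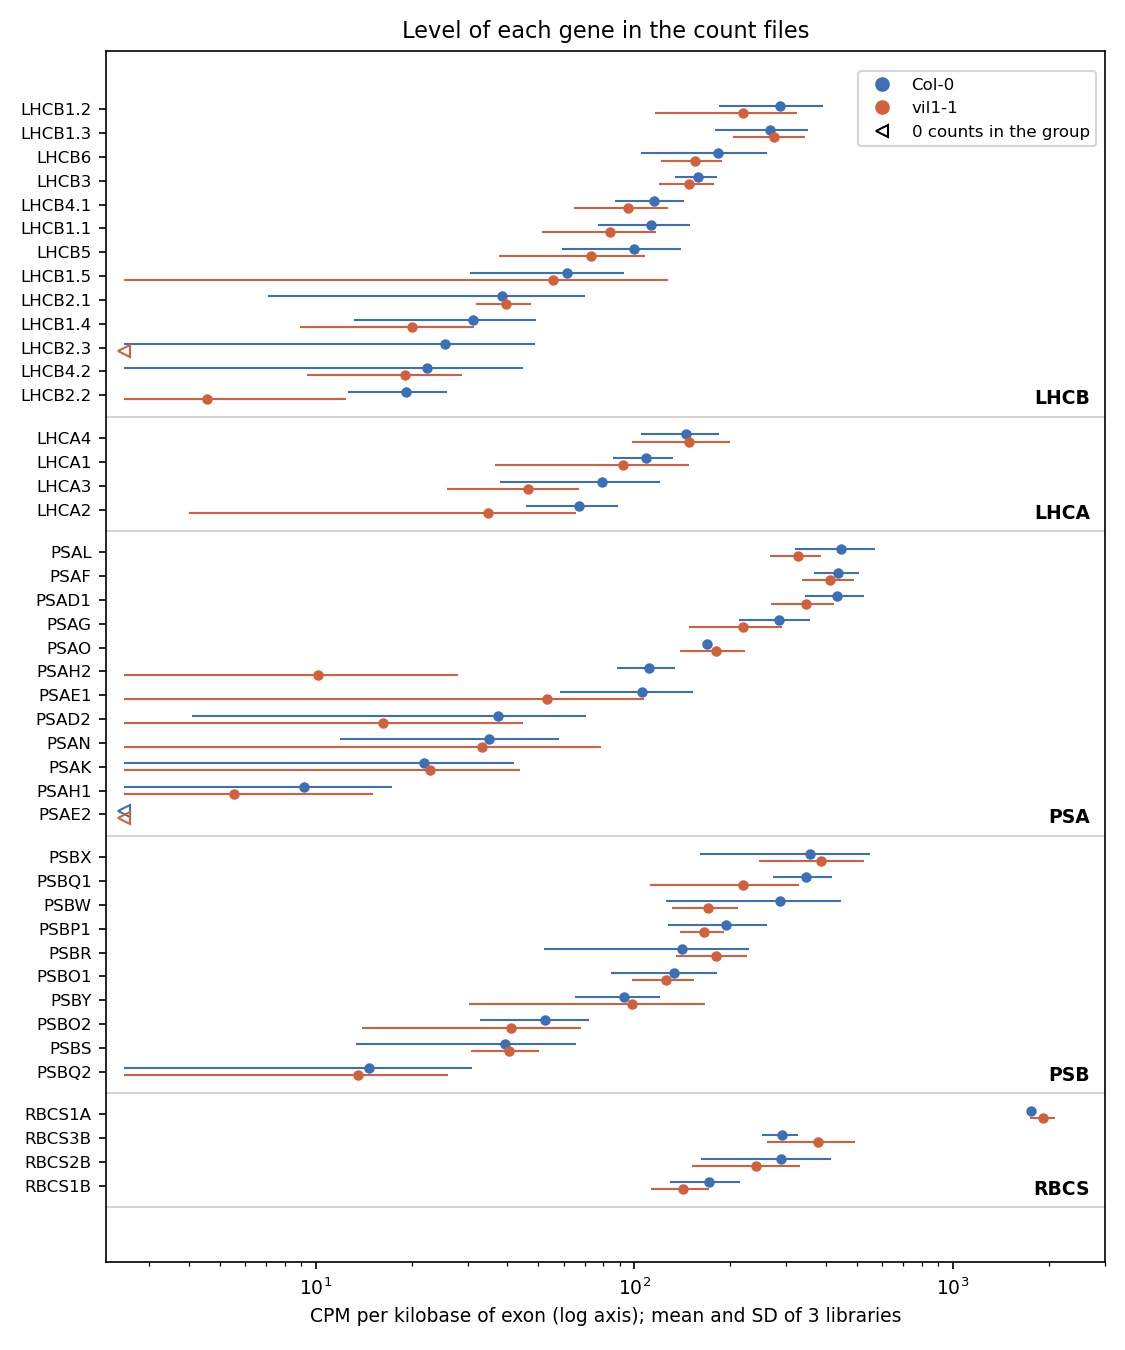
Level of each of the 43 genes as CPM per kilobase of exon on a log axis, by class, with points for the mean of 3 libraries per genotype and bars for the SD, cut at the left edge of the plot where they reach it, and open triangles for genes with 0 counts in a genotype. RBCS1A lies at 1765 (Col-0) and 1922 (vil1-1), well above PSAL at 446 in Col-0, and the 2 genotypes lie close together for most genes with a higher level.

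None of the 43 genes was called between vil1-1 and Col-0 in the counts. The low-count filter left 18 of them, and edgeR's quasi-likelihood test called 0 of these 18 (Benjamini-Hochberg adjusted p of 0.519 to 0.998), with 0 also at an unadjusted p under 0.05 and 0 called, or under an unadjusted p of 0.05, by DESeq2 and by limma-voom. Over all 942 genes tested, edgeR called 3.72%, 2.76% higher and 0.955% lower, and 12.5% had an unadjusted p under 0.05. At that unadjusted threshold DESeq2 had 23 of the 942 genes lower and 32 higher, and limma-voom 58 lower and 61 higher. These p-values measure the spread between the libraries at hand. All 18 intervals (95%) covered 0. The narrowest, of RBCS1A, reached 0.29 to either side on the log2 scale and the widest 0.79, so changes of the size that the authors' deposited table gives for these genes were mostly not detectable at this depth. Of the 18 log2 fold changes 13 were below 0, with a median of -0.19, beside 52% below 0 and a median of -0.02 over all 942 genes. The other 25 genes had too few counts for a test, and the 18 passed the filter through their own level, so they do not stand for all 43.

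**Figure D2:**
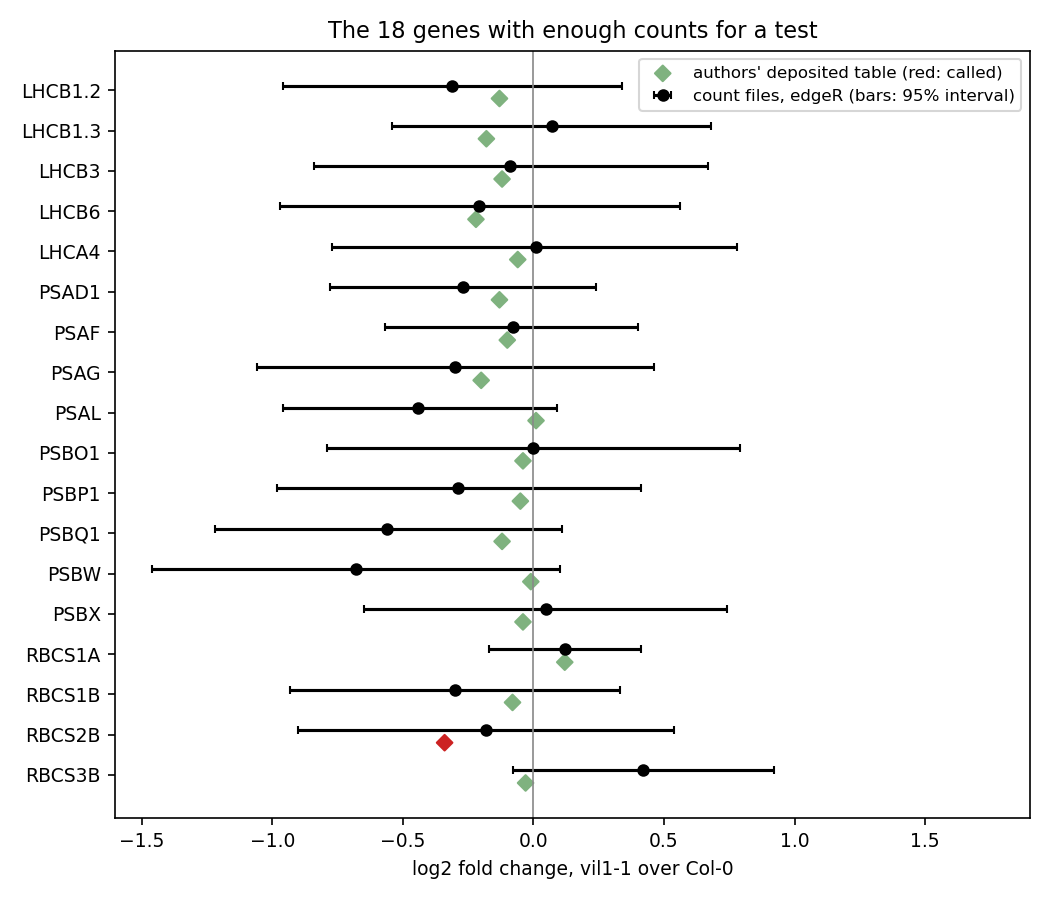
Log2 fold changes (vil1-1 over Col-0) of the 18 genes with enough counts for a test, from the count files (black points, bars for the 95% interval of edgeR's fit) and from the authors' deposited table (diamonds, red where the adjusted p is under 0.05). Every interval covers 0, and RBCS2B, at -0.34, is the red diamond.

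Calls in the authors' deposited table numbered 3 among the 43 genes, PSBR higher at a log2 fold change of 0.31 (adjusted p = 0.00172), RBCS2B lower at -0.34 (adjusted p = 0.000105) and LHCB2.3 lower at -0.44 (adjusted p = 0.0252). Over its 25005 genes 7.13% were called, 3.56% higher and 3.58% lower, and among its 4930 genes with a mean log2 CPM of at least 5, a level that most of the 43 share, 16.2% were called. The share of 3 in 43 is therefore no higher than the background. LHCB4.2, at -0.35 and adjusted p = 0.0505, lay just outside the threshold. Log2 fold changes of all 43 genes ran from -0.44 to 0.31, and 39 of them were smaller than 0.25 in either direction, less than 1.19-fold. Of the 43, 32 were below 0, with a median of -0.06, beside 55.1% of genes below 0 and a median of -0.05 over the whole table, and 47.4% below 0 and a median of 0.01 among the genes with a mean log2 CPM of at least 5.

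**Figure D3:**
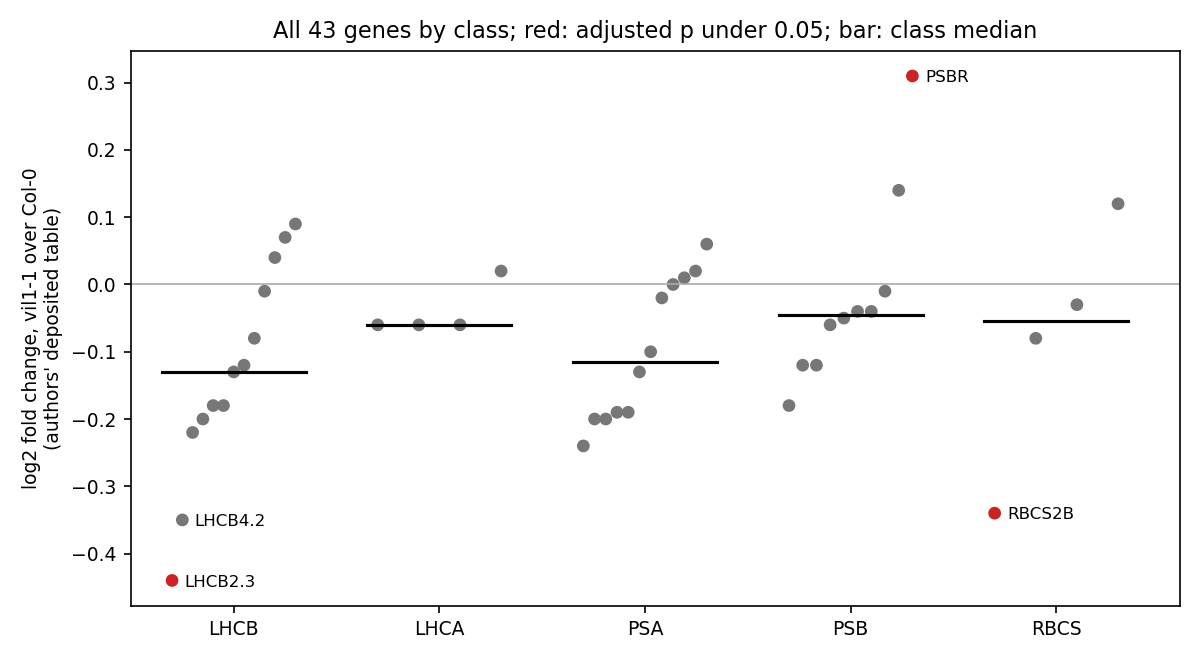
Log2 fold changes (vil1-1 over Col-0) in the authors' deposited table for each of the 43 genes, grouped by class, with red points for genes with an adjusted p under 0.05 and a bar for the class median. PSBR (0.31), RBCS2B (-0.34) and LHCB2.3 (-0.44) are the 3 red points, and LHCB4.2 (-0.35) is labelled as the gene nearest to the threshold.

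Antenna genes of photosystem II had overlapping sums in the count files, and most of them had values slightly below 0 in the authors' deposited table. LHCB1, LHCB2 and LHCB3 proteins form the trimers of the major antenna, and LHCB4, LHCB5 and LHCB6 are the minor antenna proteins that link it to the core. The 13 LHCB genes summed to 2368, 1431 and 1577 CPM in Col-0, and to 1552, 1353 and 1578 CPM in vil1-1. The log2 ratio of -0.26 was 0.00 without Col-0 replicate 1 and -0.64 with that replicate alone for Col-0. It thus rested on which Col-0 libraries were used. Of the 13 LHCB genes, 10 were below 0 by the authors' deposited table, with a median of -0.13, and weighting each gene by its mean CPM gave a class ratio of -0.11 on the log2 scale.

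LHCB1 copies made up 51.6% of LHCB counts in Col-0 (95% exact interval 45.9% to 57.2%) and 53.6% in vil1-1 (47% to 60%). LHCB1.2 (AT1G29910) had 24, 21 and 16 counts in Col-0 against 15, 6 and 23 in vil1-1, with a log2 fold change of -0.31 (95% interval -0.96 to 0.34). LHCB1.3 (AT1G29930) had 22, 18 and 17 counts in Col-0 against 20, 13 and 20 in vil1-1, with 0.07 (-0.54 to 0.68). Both genes overlapped between genotypes. By raw count vil1-1 replicate 2 was the lowest library for each. By CPM this held for LHCB1.2 only, as LHCB1.3 was lowest in Col-0 replicate 3 (260 CPM, against 266 CPM in vil1-1 replicate 2). LHCB1.1 held 44 counts in all, LHCB1.5 20 and LHCB1.4 11, too few for a test. The 5 LHCB1 copies ran from -0.18 to 0.07 in the authors' deposited table and none was called.

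LHCB2 proteins are the antenna proteins whose phosphorylation drives state transitions, the shift of antenna between the photosystems. LHCB2.3 (AT3G27690, chromosome 3, 10255906 to 10257489, plus strand, TAIR10.1) had 1, 1 and 5 counts in Col-0 against 0, 0 and 0 in vil1-1. The groups did not overlap, but 5 of the 7 counts came from Col-0 replicate 3. Without that library 2 counts were left against 0, both under the floor of 3 counts, so no fold is given. The authors' deposited table puts it at 34 CPM with -0.44, the largest negative value of the 43. LHCB2.3 overlaps AT3G27700 on the opposite strand by 595 bases, a gene with 7 counts in all and -0.08 (adjusted p = 0.807) in the authors' deposited table. LHCB2.1 and LHCB2.2 had -0.01 and -0.08 there and were not called, with 18 and 5 counts in the count files.

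LHCB3 (AT5G54270), the third trimer protein, had 11, 11 and 13 counts in Col-0 against 8, 11 and 10 in vil1-1, a log2 fold change of -0.09 (95% interval -0.84 to 0.67). LHCB6 (AT1G15820), of the minor antenna, had 16, 10 and 12 counts in Col-0 against 10, 10 and 9 in vil1-1, with -0.21 (-0.97 to 0.56). Both overlapped between genotypes. The remaining minor antenna genes were not tested. The pair LHCB4.1 and LHCB4.2 was used unequally, with LHCB4.1 at 83.6% of the counts of both (95% exact interval 71.9% to 91.8%). LHCB4.1 had 0.09, LHCB4.2 -0.35, LHCB5 -0.20 and LHCB6 -0.22 in the authors' deposited table, none of them called.

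The 4 LHCA genes, whose proteins form the belt of antenna around photosystem I, had the lowest sum of the classes. It was 633, 602 and 413 CPM in Col-0 against 388, 574 and 344 CPM in vil1-1, overlapping, with a log2 ratio of -0.34 on 98 and 68 counts. LHCA4 (AT3G47470), the 1 LHCA gene tested, had 9, 16 and 9 counts in Col-0 against 8, 13 and 9 in vil1-1, a log2 fold change of 0.01 (95% interval -0.77 to 0.78). LHCA2 had 5, 8 and 4 counts against 3, 4 and 0, and LHCA3 10, 5 and 7 against 5, 2 and 5. The summed ratio moved to -0.57 without vil1-1 replicate 2, to -0.17 without vil1-1 replicate 3 and to -0.21 without Col-0 replicate 1. The 4 LHCA genes lay within -0.06 to 0.02 in the authors' deposited table, with a weighted ratio of -0.04, and none was called.

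Photosystem I subunit genes had lower mean sums in vil1-1, with ranges that overlapped, and most had values below 0 in the authors' deposited table. The 12 PSA genes summed to 2593, 1988 and 1868 CPM in Col-0 and to 1897, 1599 and 1625 CPM in vil1-1, a log2 ratio of -0.33. The ratio was -0.16 without Col-0 replicate 1 and -0.58 with that replicate alone for Col-0. The groups overlapped narrowly with TMM scaling and did not overlap with plain library totals (1890 to 2599 CPM against 1581 to 1876 CPM). All 4 PSA genes tested had log2 fold changes below 0 and none was called. Of the 12 PSA genes, 8 were below 0 by the authors' deposited table, with a median of -0.11 and a weighted ratio of -0.09, and none was called.

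**Figure D4:**
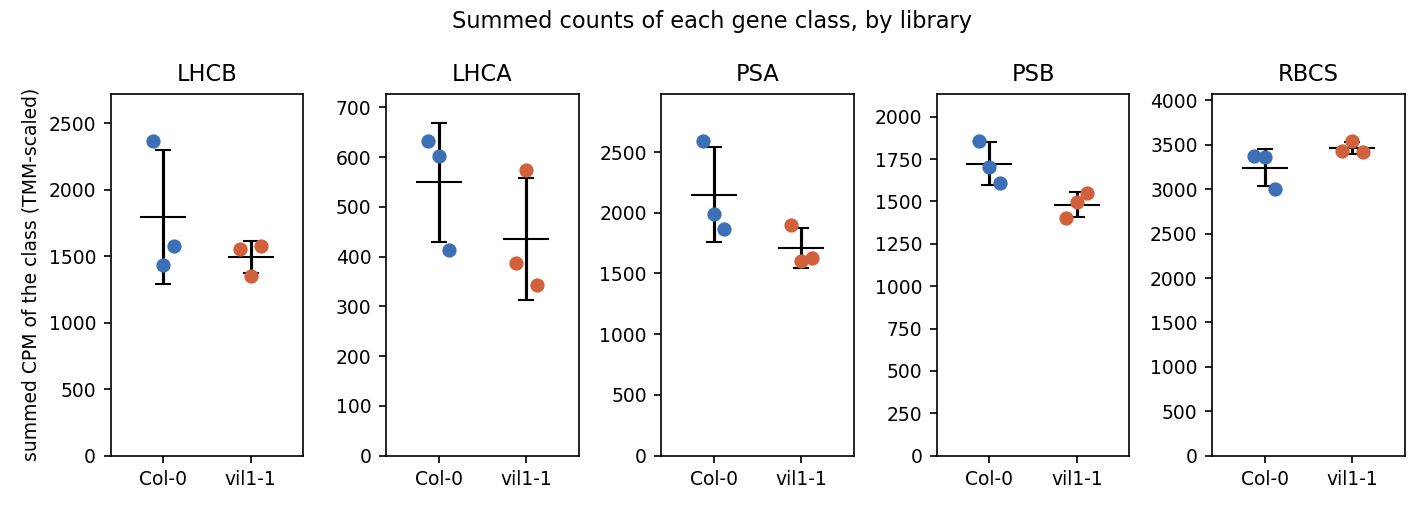
Summed CPM of each gene class in each library (points), with the mean (line) and SD (bar) of 3 libraries per genotype and axes that start at 0. Col-0 replicate 1 is the highest point for LHCB (2368) and PSA (2593), the PSB points do not overlap between genotypes, and the RBCS points of vil1-1 (3422 to 3546) lie above those of Col-0 (3001 to 3369).

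PSAD1 and PSAF were among the most abundant of these genes. PSAD (AT4G02770 for PSAD1) helps to dock ferredoxin on the stromal side, and PSAD1 had 30, 29 and 28 counts in Col-0 against 18, 15 and 31 in vil1-1, a log2 fold change of -0.27 (95% interval -0.78 to 0.24). PSAF (AT1G31330), which binds the electron donor plastocyanin on the lumenal side, had 29, 37 and 28 counts in Col-0 against 28, 22 and 28 in vil1-1, with -0.08 (-0.57 to 0.40). Neither separated the genotypes. PSAD1 made up 94.4% of the counts of PSAD1 and PSAD2 (95% exact interval 89.6% to 97.4%), and 80.3% of their summed CPM in the authors' deposited table. All 22 counts of the PSAE pair, whose proteins also sit at the ferredoxin side, were of PSAE1.

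PSAL, PSAH and PSAO lie where the mobile antenna docks on photosystem I. PSAL (AT4G12800) had 674, 437 and 413 CPM in Col-0 against 388, 430 and 297 CPM in vil1-1, a log2 fold change of -0.44 (95% interval -0.96 to 0.09). The groups overlapped, Col-0 replicate 1 was the high library, and without it the log2 fold change was -0.20. PSAL had 0.01 in the authors' deposited table and was not called. PSAO had 7, 9 and 9 counts in Col-0 against 8, 8 and 7 in vil1-1 (139 ± 3.77 and 149 ± 34.2 CPM, SD, n = 3 each), and 0.00 in the authors' deposited table. PSAG (AT1G55670), which lies beside the LHCA belt, had 14, 13 and 12 counts against 5, 10 and 13, with -0.30 (95% interval -1.06 to 0.46) in the counts and -0.20 in the authors' deposited table.

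PSAH2 was the photosystem I gene whose counts separated most. It had 4, 4 and 6 counts in Col-0 against 1, 0 and 0 in vil1-1, without overlap, a ratio of vil1-1 to Col-0 of 0.0806 with a 95% counting interval of 0.00191 to 0.53. Of the 36 genes with at least 10 counts, PSAH2 was the 1 that was lower without overlap, beside 5.94% of the 4479 genes at that level, and RBCS1A was the 1 that was higher, beside 7.03%. A count of 1 in 36 is no more than the background in either direction. It had too few counts for edgeR's filter. The authors' deposited table gives PSAH2 a log2 fold change of -0.19 (adjusted p = 0.464). PSAH2 (AT1G52230, chromosome 1, 19454798 to 19455668, plus strand, TAIR10.1) overlaps ROPGEF11 on the opposite strand by 174 bases. ROPGEF11 had 9 counts in all and a log2 fold change of -1.18 (adjusted p = 3.89e-09) by the authors' deposited table, and whether reads of one were counted for the other was not tested.

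Photosystem II subunit genes had lower sums in vil1-1 without overlap, by a small margin. The 10 PSB genes summed to 1858, 1702 and 1608 CPM in Col-0 and to 1401, 1496 and 1547 CPM in vil1-1, a log2 ratio of -0.22, with -0.25 to -0.15 as each library was left out. None of the 5 genes tested was called. The authors' deposited table had 8 of the 10 PSB genes below 0, their median at -0.04 and a weighted ratio of -0.00.

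PSBO, PSBP and PSBQ are the extrinsic proteins that shield the oxygen-evolving cluster. PSBO1 (AT5G66570) had 13, 8 and 14 counts in Col-0 against 7, 9 and 15 in vil1-1, a log2 fold change of -0.00 (95% interval -0.79 to 0.79), and PSBP1 (AT1G06680) had 9, 24 and 16 against 12, 11 and 12, with -0.29 (-0.98 to 0.41). PSBQ1 (AT4G21280) had 429, 301 and 306 CPM in Col-0 against 151, 164 and 344 CPM in vil1-1, with -0.56 (-1.22 to 0.11). Its vil1-1 replicate 3 lay within the Col-0 range, and without that library the log2 fold change was -1.07 (edgeR adjusted p = 0.241). PSBQ1 had -0.12 in the authors' deposited table and was not called. PSBO1 made up 75.9% of the counts of the PSBO pair (95% exact interval 65.5% to 84.4%) and PSBQ1 94.2% of those of the PSBQ pair (87.9% to 97.9%).

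PSBW and PSBX are small membrane-spanning subunits. PSBW (AT2G30570) had 429, 271 and 122 CPM in Col-0 against 129, 205 and 156 CPM in vil1-1, a log2 fold change of -0.68 (95% interval -1.46 to 0.10), the largest in size of the 18. Its Col-0 libraries spread more widely than the genotypes differed, and the value was -0.25 without Col-0 replicate 1 and -1.03 without Col-0 replicate 3. PSBX (AT2G06520) had 5, 25 and 19 counts in Col-0 against 9, 19 and 16 in vil1-1, with 0.05 (-0.65 to 0.74). PSBX was low in replicate 1 of both genotypes. PSBW had -0.01 and PSBX -0.04 in the authors' deposited table.

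PSBR was the 1 gene higher in the authors' deposited table. PSBR (AT1G79040, chromosome 1, 29735952 to 29737009, plus strand, TAIR10.1) encodes a small subunit that stabilises the oxygen-evolving proteins. It had 364 CPM and a log2 fold change of 0.31 there. In the count files it had 5, 3 and 12 counts in Col-0 against 7, 5 and 11 in vil1-1, or 110 ± 69.7 and 142 ± 35.6 CPM (SD, n = 3 each), which overlap and were too few for a test. RECA1 overlaps PSBR by 51 bases on the opposite strand, at 14.3 CPM and -0.28 (adjusted p = 0.516) in the authors' deposited table. PSBS, the protein that triggers heat dissipation of excess light, had 6, 2 and 4 counts against 3, 3 and 6, and -0.12 in the authors' deposited table.

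Rubisco small-subunit genes were the class with slightly higher sums in vil1-1. The 4 RBCS genes summed to 3369, 3359 and 3001 CPM in Col-0 and to 3427, 3546 and 3422 CPM in vil1-1, a log2 ratio of 0.10, without overlap. Plain library totals gave 3036 to 3376 CPM in Col-0 against 3389 to 3506 CPM in vil1-1, apart by less than the worth of 1 count. Without Col-0 replicate 3, the lowest library, the ratio was 0.06. The weighted ratio from the authors' deposited table was 0.03, with 3 of the 4 genes below 0 and RBCS1A above. As a share of the counts of all 43 genes, which no scaling of libraries can move, RBCS took 31.1%, 37% and 35.4% in Col-0 and 39.6%, 41.4% and 40.2% in vil1-1. The shares did not overlap between genotypes. Col-0 replicate 1, the library with the highest LHCB and PSA sums, had the lowest share. Pooled over libraries the shares were 34.6% (95% exact interval 32.4% to 37%) and 40.4% (37.8% to 43%). These intervals cover counting error only, not the spread between libraries. Weighting the 43 genes by their means in the authors' deposited table gave shares of 45.9% for Col-0 and 47.4% for vil1-1, in the same order and nearer to each other.

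**Figure D5:**
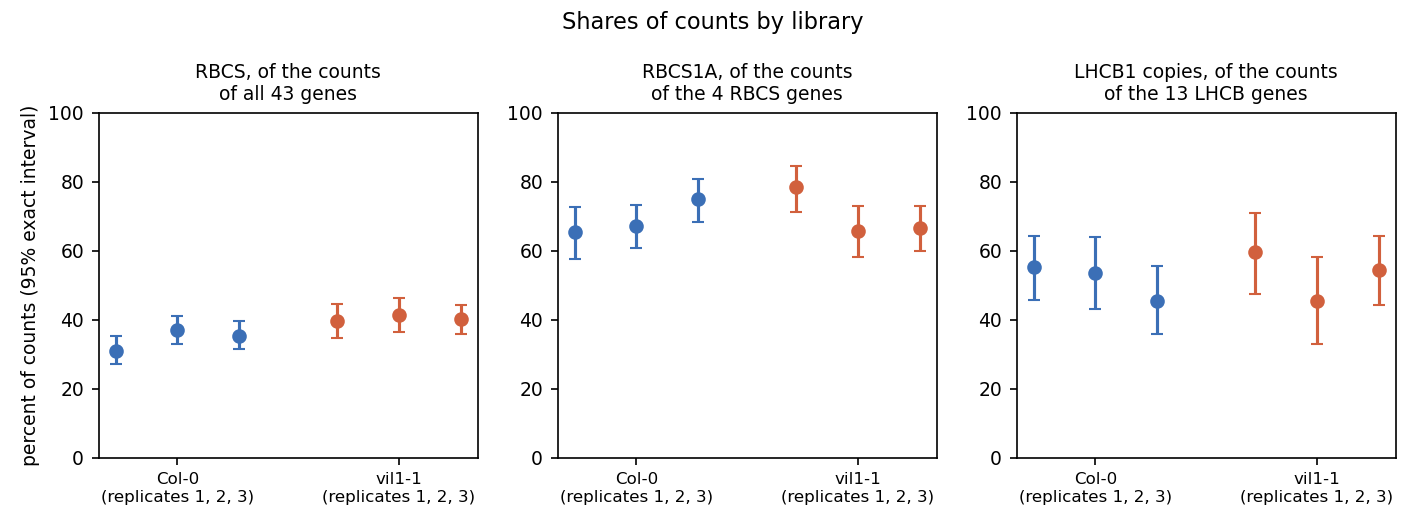
Shares of counts in each library with exact 95% binomial intervals, which cover counting error only, for RBCS among all 43 genes, RBCS1A among the 4 RBCS genes and LHCB1 among the 13 LHCB genes. The RBCS share lies at 31.1% to 37% in Col-0 and 39.6% to 41.4% in vil1-1, whereas the other 2 shares overlap between genotypes.

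RBCS1A (AT1G67090, chromosome 1, 25048158 to 25049667, minus strand, TAIR10.1) carried most of the class. It had 2205, 2259 and 2251 CPM in Col-0 against 2694, 2337 and 2281 CPM in vil1-1, which do not overlap, though vil1-1 replicate 3 lies just above Col-0 replicate 2. Its log2 fold change was 0.12 (SE 0.14, 95% interval -0.17 to 0.41, edgeR adjusted p = 0.818). The authors' deposited table also has 0.12 (adjusted p = 0.244), and RBCS1A was called in neither. It was the 1 of the 18 tested genes whose CPM ranges were higher in vil1-1 without overlap, beside 8.7% of the 942 genes tested, and none of the 18 was lower without overlap, beside 8.39%. RBCS1A made up 69.3% of RBCS counts in Col-0 (95% exact interval 65.4% to 73.1%) and 69.9% in vil1-1 (65.9% to 73.7%), and 65% of their summed CPM in the authors' deposited table.

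Of the chromosome 5 copies, RBCS1B and RBCS2B had the same sign in both sources and RBCS3B did not. RBCS2B (AT5G38420, chromosome 5, 15380907 to 15382071, minus strand, TAIR10.1), called lower at -0.34 in the authors' deposited table, had 18, 20 and 9 counts in Col-0 against 6, 13 and 18 in vil1-1, a log2 fold change of -0.18 (95% interval -0.90 to 0.54, which holds -0.34). Its groups overlapped, and the value was 0.08 without Col-0 replicate 1 and 0.07 without vil1-1 replicate 1. RBCS3B (AT5G38410) had 23, 26 and 24 counts in Col-0 against 16, 30 and 41 in vil1-1, with 0.42 (-0.08 to 0.92), against -0.03 in the authors' deposited table. RBCS1B (AT5G38430) had 16, 27 and 16 counts against 12, 16 and 14, with -0.30 (-0.93 to 0.33), and -0.08 in the authors' deposited table. RBCS3B took 40.8% of the counts of these 3 genes in Col-0 (95% exact interval 33.5% to 48.4%) and 52.4% in vil1-1 (44.5% to 60.2%), and the intervals overlap. With 83.1% to 88% of their 50-base stretches unique, some reads of these 3 genes can be alike, so the split between them is uncertain.

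Among 39 other genes of photosynthesis, 8 had enough counts for a test and edgeR called 0, beside 3.72% of the 942 genes tested. The authors' deposited table had 1 of the 39 higher and 4 lower. Its background was 7.13% called over 25005 genes, and 16.2% among the 4930 with a mean log2 CPM of at least 5. Whether the 39 genes held more calls than this background was not tested. Both early light-induced genes, whose proteins are thought to protect chlorophyll in young or stressed plastids, were lower in the authors' deposited table. ELIP1 had -0.58 (adjusted p = 8.26e-15) and ELIP2 -0.25 (adjusted p = 0.00363) in that source. In the counts ELIP1 had -0.24 (SE 0.23, edgeR adjusted p = 0.753) and ELIP2 -0.37 (SE 0.22, edgeR adjusted p = 0.532), with 2-gene sums of 1286 to 1657 CPM in Col-0 against 1000 to 1373 CPM in vil1-1 that overlap. Of 10 further light-reaction genes, FD2, a leaf ferredoxin, was lower in the authors' deposited table at -0.23 (adjusted p = 0.0164) and FNR2, a ferredoxin-NADP reductase, lower at -0.48 (adjusted p = 0.00101). FD1 had 0.02 and FNR1 0.15. All 4 values are from the authors' deposited table. In the counts FD2 had -0.08 (edgeR adjusted p = 0.932) and FD1 -0.26 (edgeR adjusted p = 0.812). FD1 was lower in vil1-1 without overlap (332 ± 13.1 and 277 ± 26.4 CPM, SD, n = 3 each), as were 8.39% of genes tested. PETE2 of the same list was higher without overlap, as were 8.7%. Of 8 rarer antenna and photosystem genes, LHCB4.3, a distinct form of the minor antenna protein, was higher at 1.11 (27.6 CPM, adjusted p = 5.98e-11) by the authors' deposited table. LHCB4.3 had 1, 2 and 0 counts in Col-0 and 0 in all 3 vil1-1 libraries, too few to set beside that value.

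None of 9 Calvin cycle genes, 4 genes for the insertion of antenna proteins and 6 regulators was called in the authors' deposited table. Their medians there were 0.07, -0.02 and -0.10. The 2 Calvin cycle genes tested were GAPA1, a subunit of the plastid glyceraldehyde phosphate dehydrogenase, and TKL1, a transketolase. GAPA1 had 0.74 (SE 0.38, edgeR adjusted p = 0.401) and TKL1 -0.25 in the counts, beside 0.15 and 0.03 by the authors' deposited table. GAPA1 was higher in vil1-1 without overlap (151 ± 12.8 and 254 ± 64 CPM, SD, n = 3 each), as were 8.7% of genes tested. CPSRP43 and CPSRP54, of the chloroplast signal recognition particle that carries antenna proteins to the thylakoid, had -0.01 and 0.10 in the authors' deposited table. Of the regulators, GLK2, a transcription factor that activates antenna genes, had 4, 4 and 8 counts in Col-0 against 13, 5 and 7 in vil1-1 with -0.14 in the authors' deposited table, and HY5, which promotes greening in light, had 4, 1 and 2 against 2, 2 and 4 with -0.17 there.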

How the data were processed

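The submitters' processing notes name Bowtie2, featureCounts, edgeR and TAIR10, without versions, settings or order of steps. The deposited counts are whole numbers per gene, 1 file per library, not normalized. The authors' deposited table holds for each gene the authors' p-value, their F score, a log2 fold change and a mean log2 CPM. Which libraries it rests on is not stated, and its values for genes without a count cannot come from these count files. Its p-values were adjusted here by Benjamini-Hochberg over 25005 genes.

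The counts of all 6 libraries were tested with edgeR 4.0.16 (R 4.3.3), quasi-likelihood F test, TMM factors on library totals, genotype as the term, default low-count filter (minimum count 10) and an adjusted p under 0.05. Each standard error was taken as the size of the log2 fold change over the root of F. On simulated counts for this comparison (5 sets, 927 genes tested on average), the code recovered 82.4% of 2-fold and 99.8% of 4-fold changes, with 4.8% false calls. The simulation gave every gene the same dispersion and changed 200 genes, more than the 35 called in the data. Its recovery is therefore not the power for the 43 genes. Class sums carry no test. Binomial intervals and floors (3 counts) cover counting error only. Weighted ratios from the authors' deposited table split each gene's mean CPM by its fold change. Gene positions, exon lengths and sequences are from RefSeq TAIR10.1, and coding sequences were aligned with MAFFT 7.526. The files hold no coordinates. All 43 identifiers matched.

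The genes, lists and tests were chosen with earlier results of these data known. Named genes were all 43, with library values for those tested or called, and from other lists those called, or up to 2 with the highest CPM. PSAH2, LHCB4.2 and several genes of other lists were named after their values were seen. Every pair of libraries differed by more than sampling noise (chi-square over genes with at least 20 counts, largest p = 0.0019).

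Alternatives were RLE or no normalization factors, other filters, the replicate block, DESeq2 1.42.0, limma-voom (limma 3.58.1) and each library left out. Same-numbered libraries of the 2 genotypes had correlations of deviations of 0.0791, -0.0332 and 0.0188. At this depth counting error can hide a shared batch, so whether the numbers pair the libraries is unknown.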

Additional observations from a re-analysis of the deposited data

How the results depend on the processing

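None of the 43 genes that could be tested was called from the counts under the other normalizations, filters and tools, or with any library left out. In the replicate block 34 genes were called over all genes, and 0 of the 18 tested here. With no filter, or with CPM above 1 in at least 3 libraries, 42 of the 43 were tested, and 2 had an unadjusted edgeR p under 0.05. Over all genes 271 lower and 264 higher of 14869 did so with no filter, and 285 lower and 230 higher of 8801 with the CPM filter. The other alternatives tested 16 to 22 of the 43. The smallest adjusted p was 0.143, of PSBW without Col-0 replicate 3. Of the 18 genes tested, 8 kept their sign in every alternative that tested them, which was 13 of 14 for PSAG and PSBW. Over all genes 35 were called (26 higher, 9 lower), 21 with no filter (16 and 5), 8 with DESeq2 (8 and 0, with 23 lower at an unadjusted p under 0.05), 31 with limma-voom (24 and 7) and 7 without both Col-0 replicates 2 and 3 (6 and 1), the libraries in which near-silent genes took most counts. With 1 library left out the calls ran from 19 (without vil1-1 replicate 2) to 36, from 15 to 22 higher and from 4 to 15 lower (without vil1-1 replicates 2 and 1, respectively). Without both Col-0 replicates 2 and 3, which leaves Col-0 replicate 1 to stand for Col-0 and is taken to vary like vil1-1, summed log2 ratios were -0.64 for LHCB, -0.58 for PSA and -0.31 for all 43 genes. With 1 library left out they ran from -0.39 to 0.00, from -0.41 to -0.16 and from -0.20 to -0.02, and for LHCA from -0.57 to -0.17, PSB from -0.25 to -0.15 and RBCS from 0.06 to 0.14. The cause was not tested.

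In the authors' deposited table, adjusting only over genes with a mean log2 CPM of at least 0 or of at least 5 added LHCB4.2 to the 3 calls. Bonferroni adjustment left 0 of the 43 called, 0 higher and 0 lower, as did a log2 fold change of at least 1.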

Other observations

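Levels of the 43 genes differed between the count files and the authors' deposited table. For the 26 genes with at least 30 counts, the CPM of the count files divided by the authors' mean CPM had a median of 0.751 and ran from 0.347 for PSBR to 2.71 for PSAL, and 6 of the 26 were more than 2-fold apart. Over the 1711 genes of the whole table with at least 30 counts the median was 1.31, and 52.6% were more than 2-fold apart. Of the less abundant genes, PSAK was at 0.191 and PSBS at 0.201 of the authors' level. Per kilobase of exon RBCS1A ranked first of the 43 in both sources, while PSAL had rank 4 in the count files and rank 20 in the authors' deposited table, and PSBR ranks 16 and 5. The count files held no count for 10137 of the authors' 25005 genes. PSAE2 stood at 11.2 CPM and VIL1 at 14.2 CPM by the authors, each with 0 counts in all 6 libraries. The authors' values for such genes therefore cannot come from these counts. The cause of the differences in level was not tested.

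For 5 of the 6 proteins encoded by a pair of these genes, the same copy held most counts in both genotypes. The share of the leading copy was 93.5% in Col-0 and 95.5% in vil1-1 for PSAD1, 95.3% and 92.5% for PSBQ1, 72.9% and 79.5% for PSBO1, and 82.9% and 84.6% for LHCB4.1. The exact 95% intervals of the 2 genotypes overlapped for each of these 4 pairs. The same copy led in the authors' deposited table, with 80.3%, 81.1%, 79.5% and 82.4% of the summed CPM of each pair. PSAE1 held all 16 and all 6 counts of the PSAE pair. The PSAH pair had no leading copy in vil1-1, where it had 2 counts. PSAH2 held 14 of 16 counts of the PSAH pair in Col-0 (87.5%) and 1 of 2 in vil1-1 (exact 95% interval 1.26% to 98.7%).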
